A study of Ovis aries with 3 samples.

Results

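The 9 genes described here make heme or serve the red cell line: *ALAS2*, *HBM*, *AHSP*, *BLVRB*, *KLF1*, *GATA1*, *HEMGN*, *SLC4A1* and *RHAG*. They were taken by symbol from the 26478 genes listed for 3 single-cell RNA libraries of whole sheep embryos, and each matched 1 listed gene. The libraries were an embryonic day 19 (E19) embryo of Hulunbuir short-tailed sheep (HSTS), an E19 embryo of Hu sheep (HS), and E16 HS. HSTS is a breed with a naturally short fat tail whose tested parents were homozygous for a coding mutation of *T*. HS is a breed with a longer fat tail and without that mutation. The embryos' own genotypes are not in the labels. Dams in both breeds were synchronised and artificially inseminated. The E16 HS library is labelled as 1 embryo, although the study counts 3 E16 HS embryos, so it is unsettled whether it was pooled. With 1 library per group no difference was tested, and all intervals are exact 95% intervals (Poisson for levels, Clopper-Pearson for shares, conditional for ratios) that cover counting error only. Breed, embryo and library cannot be told apart, and neither can stage, embryo and library. Every embryo was passed through red blood cell lysis buffer after collagenase digestion, which acts on the cells these genes mark, and its effect on their share was not tested.

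Red cell precursors build hemoglobin from globin chains and heme, the iron-holding ring that carries oxygen. Heme synthesis starts in the mitochondrion with aminolevulinate synthase, whose erythroid form is ALAS2, and its genes are switched on together with globins and red cell membrane genes by GATA1 and KLF1. In mammalian embryos the first red cells come from the yolk sac, enter the circulation with a nucleus and mature there.

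To tell the number of red cells from the level within them, cells with at least 5 *AHSP* UMIs (unique molecular identifiers, each counting 1 captured mRNA) and at least 2 *ALAS2* UMIs were set apart; they are called gated cells. A cell was kept if it had between 200 and 6000 genes seen, between 1000 and 30000 UMIs, and no more than 10% mitochondrial UMIs. Gated were 2448 of 9618 kept cells in E19 HSTS, 1305 of 10629 in E19 HS, while E16 HS had 1857 of 11329. The shares were 25.5% (24.6 to 26.3), 12.3% (11.7 to 12.9) and 16.4% (15.7 to 17.1) in that order. E19 HSTS thus had 2.07 times the share of E19 HS (1.94 to 2.22), and E16 HS had 1.33 times that share (1.24 to 1.43). The ratios moved up, to 2.56 and 1.94, when cells with at least 5000 UMIs were first thinned to 5000 and the others left out. That left 7547, 7684 and 8809 cells in the same order. The gate was not scaled to this depth, and 1310, 522 and 1161 cells passed it. The thinned share therefore also depends on the *AHSP* and *ALAS2* level per cell. At the edge of the gate, cells with 5 or more *AHSP* UMIs but under 2 of *ALAS2* were 2.04% of *AHSP*-high cells in E19 HSTS, against 6.85% in E19 HS and 6.82% in E16 HS.

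Gated cells were deeper than the other cells, with medians of 18072 and 18210 UMIs at E19 in HSTS and HS and 14531 at E16, against 7200, 6380 and 8048. In gated cells, 4 genes listed without a symbol took 56.0% of UMIs in E19 HSTS, against 52.6% in E19 HS, while E16 HS had 35.5%, against 1.12% to 1.92% in other cells. A smaller share for these genes leaves more of the total for all others. This touches the E16 comparison below, and any comparison of CPM in gated cells with CPM in other cells. Kept cells shared 31 to 37 barcodes between any pair of libraries, and gated cells 0 to 2. Both markers of a non-blood cell type were found in 2.45% of gated cells in E19 HSTS, 2.15% in E19 HS and 2.05% at E16. Myeloid, megakaryocyte and early blood progenitor marker pairs were not part of this count.

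Levels are given as CPM, the UMIs of a gene per 1000000 UMIs of the cells summed; where 3 values stand together without names they follow the order E19 HSTS, E19 HS, E16 HS. Over all kept cells, 8 of the 9 genes were higher in E19 HSTS than in E19 HS, from 1.37 times for *AHSP* to 8.17 times for *RHAG*, and *HBM* alone was lower. Within gated cells the picture separated. *RHAG* remained 5.00 times as high and *HBM* 0.408 times the E19 HS level, *HEMGN*, *SLC4A1* and *ALAS2* were 1.68 to 1.82 times as high, and *KLF1*, *GATA1*, *BLVRB* and *AHSP* lay between 0.864 and 1.20. Past 2-fold over all kept cells were 4 members higher (*RHAG*, *HEMGN*, *ALAS2* and *SLC4A1*) and 0 lower, where 1.42% of all genes tested were higher and 1.98% lower. In gated cells 1 member was past 2-fold higher and 1 lower, against 2.84% and 2.23% of genes. The median ratio of the members was 1.91 over all kept cells and 1.20 in gated cells, beside 0.966 and 1.02 for all genes.

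**Figure D1:**
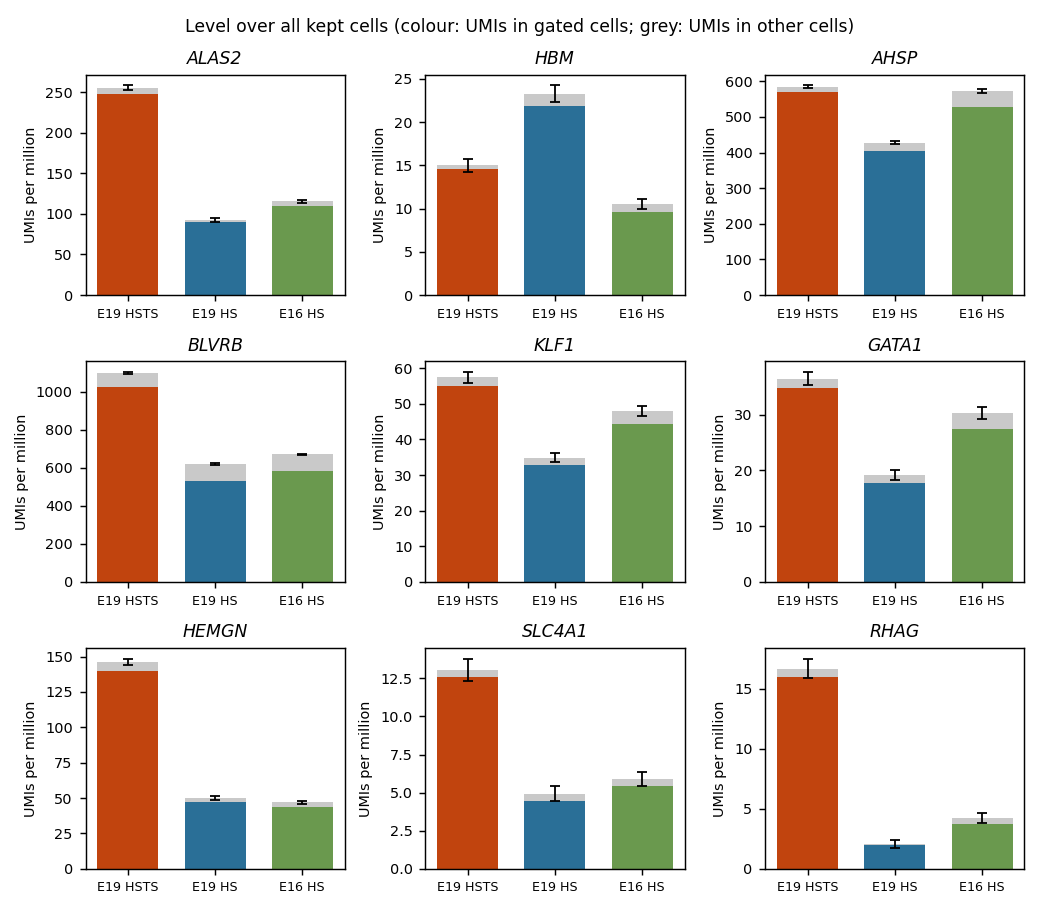
Each panel is a gene, each bar a library, and its height is CPM over all kept cells, with 95% Poisson intervals; the coloured part lies in gated cells and the grey part in other cells. *RHAG* stood at 16.7 in E19 HSTS, against 2.04 in E19 HS and 4.21 in E16 HS, while *HBM* was highest in E19 HS at 23.3.

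The members' UMIs lay mostly in gated cells. These cells held 95.8% of *RHAG* UMIs in E19 HSTS, against 96.1% in E19 HS and 87.8% in E16 HS. For *BLVRB*, which is used in many tissues, the shares were 93.3%, 86.0% and 86.9%. For the other 7 genes they were between 90.6% and 97.7%. *AHSP* and *ALAS2* are among these 7, and the 97.7% is that of *ALAS2* in E19 HS. Both genes set the gate, so their shares are shaped by it and are no independent result.

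*ALAS2* makes the first and rate-limiting step of heme synthesis in red cell precursors. In gated cells it stood at 553 CPM in E19 HSTS, against 329 in E19 HS and 454 in E16 HS. E19 HSTS was thus highest, at 1.68 times E19 HS (1.64 to 1.72), and the intervals of the 3 libraries did not overlap. Its median count was 9 UMIs per gated cell in E19 HSTS and 6 in both HS libraries. Because 2 *ALAS2* UMIs were needed to enter the gate, these levels describe the gated cells and are no independent result; with the gate on *AHSP* alone and with the other cell gates tried E19 HSTS was also the higher E19 library. Thinning the cells before gating gave the smallest ratio, 1.30.

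*HBM* encodes a globin of the alpha cluster, globin mu. Its level in gated cells was 32.6 CPM in E19 HSTS, against 79.8 in E19 HS and 39.9 in E16 HS. E19 HS was the high library, and at least 1 UMI was seen in 55.6% of its gated cells against 32.4% in E19 HSTS and 33.8% in E16 HS. The upper end of the distribution differed too: 21.0% of gated E19 HS cells held 3 or more *HBM* UMIs, against 6.21% in E19 HSTS and 6.14% in E16 HS. The E19 HSTS to E19 HS ratio was 0.408 (0.381 to 0.437), and 0.515 (0.421 to 0.630) with cells thinned before gating, which no longer passed 2-fold. Its neighbour in the gene order of RefSeq's sheep assembly, *HBQ1*, another alpha-cluster globin, differed less, with 64.3, 77.2 and 78.2 CPM and a ratio of 0.833 (0.785 to 0.883). Globin genes have near-identical copies whose reads a counter can split or drop, and *HBM* and *HBQ1* are uncertain to that extent.

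*AHSP*, the chaperone that holds free alpha globin in solution, was lower in gated E19 HSTS cells than in E19 HS although it was higher over all cells. The in-gate levels were 1275 CPM in E19 HSTS, against 1475 in E19 HS and 2180 in E16 HS. Counted per cell, E19 HSTS had 1.70 times the *AHSP* UMIs of E19 HS per kept cell but 0.842 times per gated cell. *AHSP* was part of the gate, so this too is a description.

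*BLVRB*, which reduces biliverdin, a product of heme breakdown, and flavins, stood at 2289 CPM in gated cells in E19 HSTS, against 1938 in E19 HS and 2407 in E16 HS. It had at least 1 UMI in every gated cell of the 3 libraries. The E19 ratio was 1.18 (1.17 to 1.19). The study used *AHSP* and *BLVRB* to name its blood progenitor cells.

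*KLF1* and *GATA1*, the transcription factors that drive red cell genes, differed little per gated cell between the E19 libraries. *KLF1* stood at 123 CPM in E19 HSTS, against 119.5 in E19 HS and 183 in E16 HS, and the intervals of both E19 libraries overlapped, with a ratio of 1.03 (0.983 to 1.08). Its count per kept cell, 2.04 times as high in E19 HSTS, went with the 2.07-fold share of gated cells, since the count per gated cell was 1.00 times that of E19 HS. *GATA1* stood at 77.8, 64.9 and 114 CPM, with an E19 ratio of 1.20 (1.13 to 1.27).

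*HEMGN*, hemogen, a nuclear protein of blood-forming cells and a target of GATA1, differed most between the E19 libraries of these 3 regulators. It stood at 313 CPM in gated cells in E19 HSTS, against 172 in E19 HS and 181 in E16 HS. E19 HSTS was high and both HS libraries were low, with overlapping intervals. At least 3 *HEMGN* UMIs were found in 82.8% of gated E19 HSTS cells, 56.9% of E19 HS and 45.3% of E16 HS. The ratio of 1.82 (1.76 to 1.88) was under 2-fold, and no setting tried took it past 2-fold (1.79 to 1.99).

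*SLC4A1* encodes band 3, the anion exchanger that exports bicarbonate and anchors the red cell skeleton. It stood at 28.1 CPM in gated cells in E19 HSTS, against 16.3 in E19 HS, while E16 HS had 22.4. The E19 ratio was 1.73 (1.54 to 1.94), and 2.06 with cells thinned before gating, which passed 2-fold. A UMI was seen in 36.6%, 24.9% and 27.3% of gated cells.

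*RHAG*, the Rh-associated glycoprotein, is a gas and ammonium channel that carries the Rh antigens to the red cell surface. Its 1590 UMIs in gated E19 HSTS cells gave 35.7 CPM (34.0 to 37.5). The 174 UMIs in E19 HS gave 7.15 (6.12 to 8.29), and the 419 in E16 HS gave 15.3 (13.9 to 16.9). The order was E19 HSTS, E16 HS, E19 HS, with no overlap of intervals. The cells with a UMI were 45.2% (43.2 to 47.2) of gated cells in E19 HSTS, 12.4% (10.7 to 14.3) in E19 HS and 19.9% (18.1 to 21.8) in E16 HS. At an equal depth of 5000 UMIs per cell these shares were 17.1%, 3.83% and 7.77%. More than 1 UMI was rare in E19 HS: 10 gated cells had 2 and 1 had 3 or more, against 251 and 104 in E19 HSTS.

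The *RHAG* difference therefore had both components. Per kept cell E19 HSTS held 10.1 times the *RHAG* UMIs of E19 HS; the share of gated cells was 2.07 times and the UMIs per gated cell 4.87 times as high. In CPM of gated cells the ratio was 5.00 (4.27 to 5.88). It lay between 4.15 and 5.47 under all 12 alternative gates, cell filters and scalings, with the lowest value on thinned cells. Without the gated cells that also carried both markers of a non-blood type it was 4.98. The genes next to *RHAG* in RefSeq's sheep assembly, *GLYATL3* and *CRISP3*, had 0 UMIs in gated cells of the 3 libraries.

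**Figure D2:**
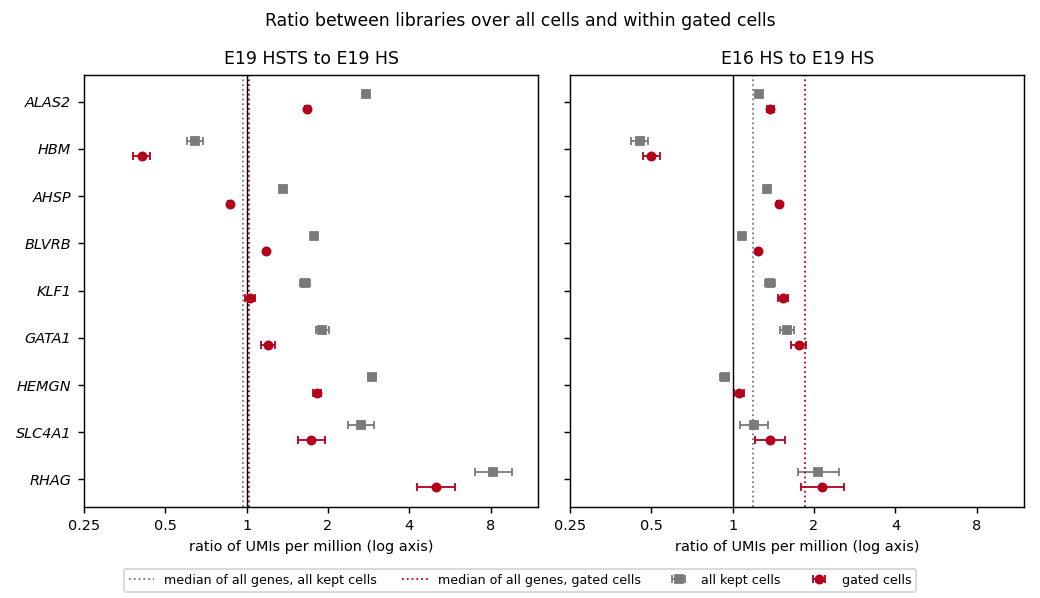
Ratios of CPM between libraries on a log axis, over all kept cells (grey squares) and within gated cells (red circles), with exact 95% intervals; dotted lines mark the median ratio of all genes. For E19 HSTS to E19 HS *RHAG* moved from 8.17 to 5.00 and *KLF1* from 1.65 to 1.03 once only gated cells were counted, whereas for E16 HS to E19 HS 8 members lay at or below 1.75 in gated cells, left of the dotted median of 1.85.

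Gated cells of the 3 libraries were next split by their summed *AHSP* and *ALAS2* content, with cut points at 17.4 and 23.2 UMIs of both genes per 10000. The sum is mostly *AHSP*, so the split did not make the libraries equal in each gene: within the tertiles *ALAS2* was still 1.59 to 1.82 times as high in E19 HSTS as in E19 HS, and *AHSP* 0.829 to 0.862 times. The lowest tertile held 44.5% of gated cells in E19 HSTS, against 45.6% in E19 HS, while E16 HS had 9.96%; the highest held 17.7%, 13.4% and 67.9%. The E19 libraries were spread alike and E16 HS lay higher. *RHAG* in E19 HSTS stood at 33.2, 36.9 and 39.5 CPM from the lowest to the highest tertile, and in E19 HS at 6.66, 7.72 and 6.99. The E19 ratios were 4.99 (3.91 to 6.44), 4.78 (3.78 to 6.12) and 5.65 (3.67 to 9.16). The tertiles rest on the genes that set the gate, and the ratios describe them without holding *ALAS2* constant. In E16 HS *RHAG* stood at 7.70, 13.7 and 17.3, close to E19 HS in the lowest tertile, with a ratio of 1.16 (0.703 to 1.84), and above it in the highest, with 2.47 (1.61 to 4.01).

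E19 HSTS was also the higher E19 library when cells were split by depth. In tertiles of total UMIs per cell the E19 ratio of *RHAG* was 4.22 (2.92 to 6.30), 3.97 (3.04 to 5.26) and 6.13 (4.87 to 7.80). *HBM* was lower in E19 HSTS than in E19 HS in each of the 6 tertiles, with ratios from 0.386 to 0.463. *HEMGN* kept its direction over *AHSP* and *ALAS2* tertiles as well, with 285, 332 and 342 CPM in E19 HSTS against 160, 183 and 176 in E19 HS. *SLC4A1* stood at 26.5, 29.3 and 29.8 against 15.8, 16.8 and 16.2.

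**Figure D3:**
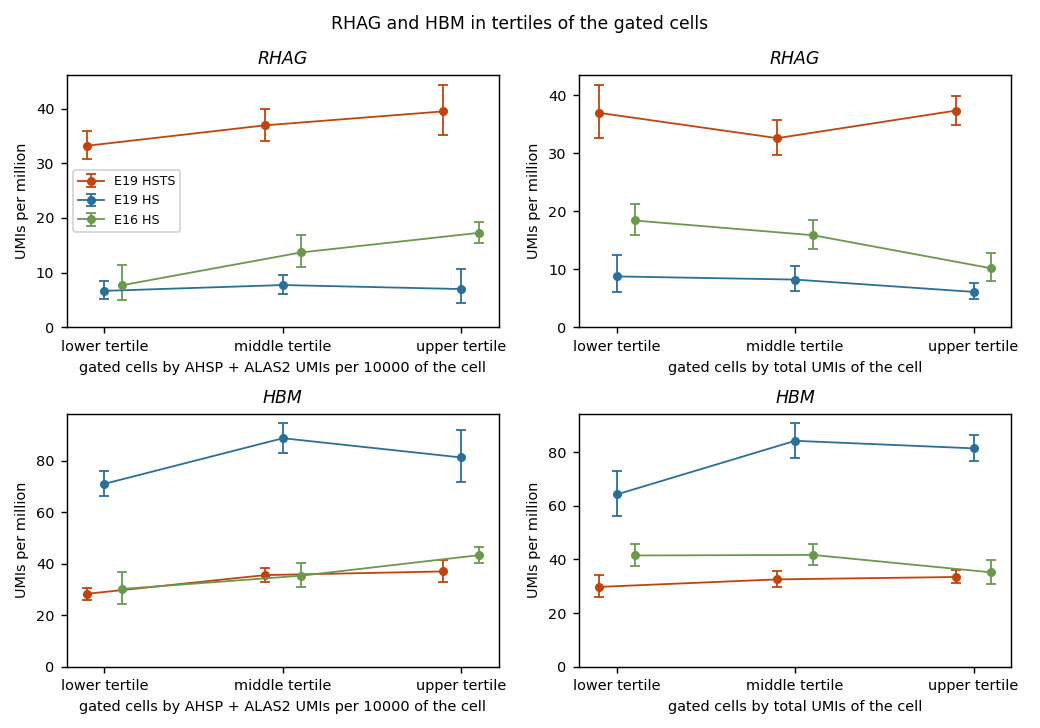
CPM of *RHAG* (top) and *HBM* (bottom) in tertiles of gated cells, cut by *AHSP* plus *ALAS2* content (left) or by total UMIs (right), with 95% Poisson intervals; lines join tertiles of 1 library. The E19 HSTS points of *RHAG* lie between 32.6 and 39.5 and those of E19 HS between 6.09 and 8.76, while E19 HS is the highest library for *HBM* in every tertile.

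Between stages in HS, the comparison shares its E19 HS library with the one above. In CPM of gated cells, 8 members were higher in E16 HS, from *HEMGN* at 1.05 (1.01 to 1.10) to *RHAG* at 2.14 (1.79 to 2.57), and *HBM* was lower at 0.5001 (0.464 to 0.539), just short of 2-fold. *RHAG* was the 1 member past 2-fold higher, where 41.8% of all genes were, and 0 were past 2-fold lower, where 1.17% were. The median of all genes was 1.85, so most genes tested stood higher in CPM in E16 HS. Divided by that median, a scaling chosen after the data were seen, *RHAG* was at 1.16 (0.966 to 1.39), *GATA1* at 0.945, *KLF1* at 0.827, *AHSP* at 0.797, *ALAS2* and *SLC4A1* each near 0.742, *BLVRB* at 0.670, *HEMGN* at 0.568 and *HBM* at 0.270. The direction of 7 members therefore turned with the scaling. *HBM* was lower in E16 HS under all 12 alternatives. *RHAG* was above 1 under all 12, but relative to the median its interval covered 1, so that scaling gives it no clear direction.

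Counted per gated cell, without a total, E16 HS had 1.69 times the *RHAG* UMIs of E19 HS, 1.38 times those of *GATA1*, 1.21 of *KLF1*, 1.17 of *AHSP*, 1.09 of *ALAS2* and *SLC4A1*, 0.981 of *BLVRB*, 0.832 of *HEMGN* and 0.395 of *HBM*. Gated cells were shallower in E16 HS, as given above. Over all kept cells *RHAG* was 2.07 times as high in E16 HS (1.74 to 2.46) and *HBM* 0.453 times (0.422 to 0.487). These were the 1 member higher and 1 lower past 2-fold, against 7.02% and 5.97% of genes.

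The lists that follow include the members. At E19 *ALAS2* had the highest ratio of the heme synthesis genes in gated cells, and *ALAD* the lowest. *ALAS2* set the gate, so its rank is a description, and its ratio was 1.30 on cells thinned before gating. Of 9 listed genes 8 were measured and all 8 were counted deeply enough; 0 were past 2-fold in gated cells in either direction, and the median E19 HSTS to E19 HS ratio was 1.22 beside 1.02 for all genes. *ALAD*, the next enzyme after ALAS2, stood at 470 CPM in E19 HSTS, against 517 in E19 HS and 575 in E16 HS, with an E19 ratio of 0.910 (0.890 to 0.9305). *FECH*, which inserts the iron, stood at 106 in E19 HSTS and 74.0 in E19 HS, and *UROS*, an enzyme of the middle steps, at 24.8 and 16.1. Their ratios of 1.43 (1.36 to 1.51) and 1.54 (1.375 to 1.74) were nearest to the 1.68 of *ALAS2*, and both were named after their values were seen. *ALAS1*, the synthase of other tissues, was low at 5.06, 4.23 and 10.2 in gated cells.

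Genes that move heme and porphyrins or break heme down had 0 of 9 tested past 2-fold between the E19 libraries, with a median of 1.09. *TMEM14C*, a mitochondrial porphyrin carrier, stood at 1563, 1432 and 1860 CPM, and *BLVRA*, the other biliverdin reductase, at 82.7, 84.1 and 206. *ABCG2*, a porphyrin exporter, had an E19 ratio of 1.53 (1.36 to 1.72). For iron uptake and storage 0 of 10 were past 2-fold, with a median of 1.22. *SLC25A37*, mitoferrin, which brings iron into the mitochondrion, came nearest with 135 CPM in E19 HSTS, against 69.7 in E19 HS and 101.5 in E16 HS, a ratio of 1.93 (1.83 to 2.04). *FTH1*, ferritin heavy chain, had a ratio of 1.14 (1.13 to 1.14), and *STEAP3*, an iron reductase, 0.913 (0.842 to 0.991).

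Of 14 listed globin and chaperone genes only 4 had a symbol in the files, and *HBM* was the 1 of 3 tested past 2-fold. *HBB* had 3, 2 and 37 UMIs in gated cells and was too low to compare at E19. The other listed globins were not analysed here. Among erythroid regulators 0 of 14 tested were past 2-fold, with a median of 1.19. *NFE2*, a factor that acts on globin genes, had an E19 ratio of 1.44 (1.23 to 1.68), and *ZFPM1*, the partner of GATA1, 1.22 (1.05 to 1.42).

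Red cell membrane and skeleton genes had the highest median of the red cell lists at E19, 1.48 over 13 genes tested, and *RHAG* was the 1 past 2-fold. *EPB41*, protein 4.1, stood at 108 CPM in E19 HSTS, against 67.9 in E19 HS and 121 in E16 HS, a ratio of 1.60 (1.51 to 1.69). *ANK1*, ankyrin, which ties band 3 to spectrin, went the other way with 30.2, 34.7 and 100.4, a ratio of 0.871 (0.798 to 0.950). Of the 13 tested only *ANK1* and *SPTB*, beta spectrin, lay below 1, *SPTB* at 0.940 (0.820 to 1.08). The others lay above 1 to different extents, from 1.006 for *DMTN* to 5.00 for *RHAG*. Red cell enzymes had 0 of 11 past 2-fold and a median of 1.04, with *PRDX2*, a peroxidase, at 4654, 4259 and 5466 CPM and *GPX1*, glutathione peroxidase, at 1512, 1448 and 2885.

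**Figure D4:**
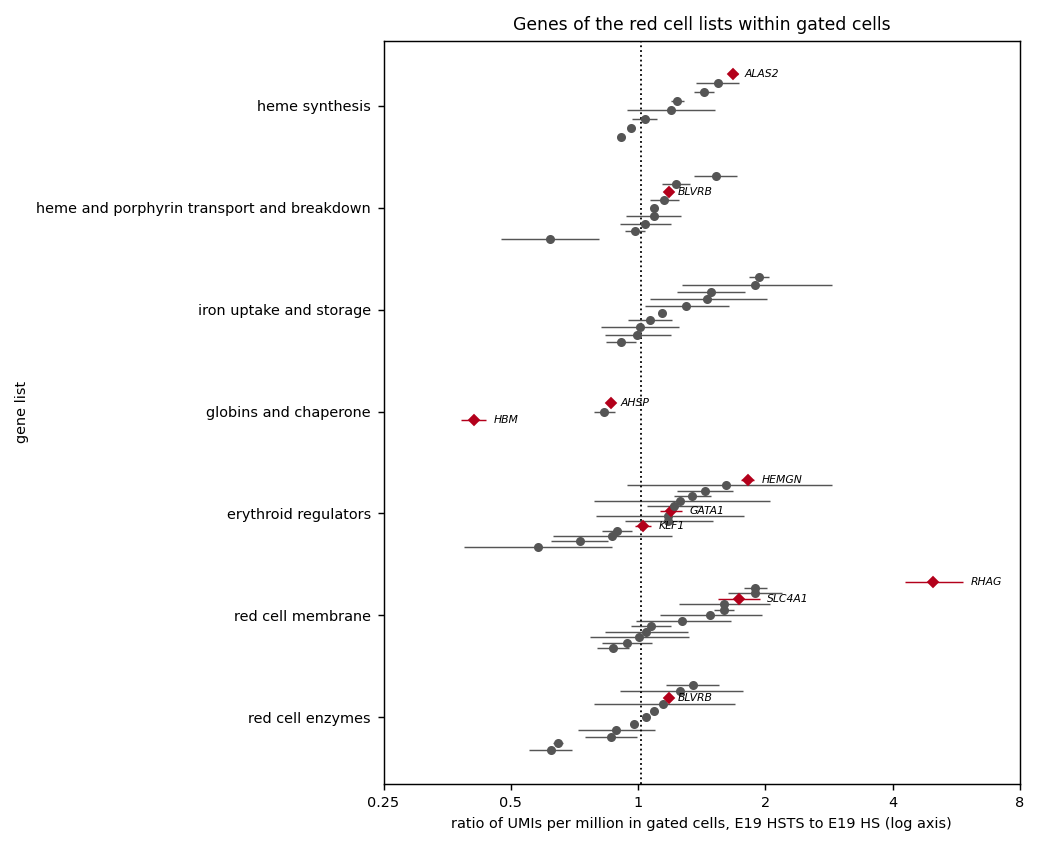
Ratios of CPM in gated cells, E19 HSTS to E19 HS, on a log axis with exact 95% intervals for genes with at least 50 UMIs in the higher library, grouped by the 7 red cell lists; red diamonds are the 9 members and the dotted line is the median of all genes, 1.02. *RHAG* at 5.00 and *HBM* at 0.408 lie outside the range of the other genes drawn; markers of other cell types are not drawn.

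For the ratio of E16 HS to E19 HS the same lists gave medians in gated cells below the 1.85 of all genes: 1.28 for heme synthesis (1 of 8 past 2-fold higher), 1.35 for transport and breakdown (4 of 9), 1.63 for iron (2 of 10), 1.01 for globins and chaperone (0 of 3), 1.73 for regulators (3 of 12), 1.71 for membrane (6 of 14) and 1.28 for enzymes (2 of 11), with 0 lower in each. The shares are to be read against 41.8% of all genes. *SPTB*, beta spectrin, had 4.03 (3.57 to 4.55), *ADD2*, an adducin, 3.47 (2.68 to 4.56), and *ZFPM1* 3.09 (2.68 to 3.57). *ANK1*, at 2.89 (2.68 to 3.13), and *SPTB* were thus above the median of all genes in E16 HS while *SLC4A1*, at 1.38 (1.21 to 1.56), was below it.

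By the summed CPM per list, genes of other cells that the gate could hold were lower in it than outside in both E19 libraries. In E16 HS this held apart from the progenitor and megakaryocyte lists. The 4 genes without a symbol took 56.0% and 52.6% of gated UMIs at E19 in HSTS and HS, against 1.92% and 1.32% outside. That lowers every other CPM in the gate. The progenitor sums are close enough for their direction at E19 to turn on this, which was not tested. The summed level of 10 progenitor genes was 53.2, 59.5 and 148 CPM in gated cells, with *MYC*, a growth regulator used in many cells, taking 38.1, 46.9 and 126; the sum was 84.2, 66.3 and 83.3 in other cells. *GATA2* had 1, 0 and 0 UMIs in gated cells and *KIT* 9, 4 and 14. The 8 megakaryocyte genes summed to 1.69, 1.81 and 16.0, with *PPBP* at 0 in each library, and *GP1BB* at 0.337, 0.205 and 12.4, against sums of 13.2, 10.0 and 15.2 in other cells. The 11 myeloid genes summed to 5.01, 2.30 and 5.08 against 35.3 to 49.6 in other cells. The 10 endothelial genes summed to 24.4, 22.9 and 17.9 against 51.7 to 147, the 8 yolk sac and hepatic endoderm genes to 85.8, 122.5 and 172 against 823 to 893, and the 14 genes of other non-blood types to 61.0, 48.1 and 129 against 1133 to 1827.

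Some of these markers nevertheless moved with the E19 libraries inside the gate. Past 2-fold in E19 HSTS against E19 HS were 1 of 2 myeloid genes tested higher (*C1QA*, 52 UMIs against 1, a ratio of 28.4 with an interval of 4.89 to 1145), 1 of 3 endothelial genes higher (*KDR*, 2.41) and 1 lower (*PLVAP*, 0.373), 2 of 5 yolk sac and hepatic genes higher (*TTR*, 6.09; *AFP*, 4.01) and 1 lower (*APOA1*, 0.323), and 2 of 9 other genes higher (*NEFL*, 2.83; *NEFM*, 2.27). Progenitor genes had 0 of 4, and no megakaryocyte gene was deep enough. Of all genes tested in gated cells, 2.84% were past 2-fold higher in E19 HSTS and 2.23% lower. In E16 HS against E19 HS past 2-fold were 2 of 3 progenitor genes higher, 1 of 1 megakaryocyte, 1 of 1 myeloid, 1 of 3 endothelial, 4 of 6 yolk sac and hepatic, and 3 of 8 other genes, with 3 of those 8 lower, *MYL7* and *TNNT2* of heart muscle among them. These counts are to be read against all genes tested in gated cells, of which 41.8% were past 2-fold higher in E16 HS and 1.17% lower. Without the gated cells that carried both markers of a non-blood type, the E19 ratio in the gate was 4.98 for *RHAG*, 0.411 for *HBM*, 1.83 for *HEMGN*, 1.71 for *SLC4A1* and 1.69 for *ALAS2*, and 0.868 to 1.21 for the other 4 members, near the values with them. Myeloid, megakaryocyte and early blood progenitor marker pairs were not used for this removal. The part of free RNA from other cells was not tested.

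Outside the gate, cells that carried both markers of another type gave the background of these genes. *RHAG* was seen, after thinning to 5000 UMIs, in 1 of 615 spinal cord cells (*PAX6* and *SOX2*) of E19 HSTS, in 0 of 839 of E19 HS and in 0 of 356 of E16 HS, at unthinned medians of 8608, 7908 and 9554 UMIs. Taken as 3 cells of the total, a count of 0 allows a share of cells with a UMI of up to 0.358% and 0.843%, and the upper Clopper-Pearson bounds are 0.439% and 1.03%; none of these limits the cells that express the gene. *KLF1* was seen in 0.650%, 0.119% and 0.281% of these cells and *GATA1* in 0.488%, 0.119% and 1.40%, far under the gated shares. *AHSP* reached 12.1% of spinal cord cells in E16 HS, against 3.25% in E19 HSTS and 1.31% in E19 HS, and 17.3% of gut cells (*CLDN7* and *KRT7*) in E16 HS. *BLVRB* was of another kind, with 24.6%, 26.2% and 37.4% of spinal cord cells and 44.3%, 33.7% and 42.1% of extraembryonic endoderm cells (*APOA2* and *FGG*). Its level was highest outside the gate in the 26 myeloid cells (*C1QB* and *C1QC*) of E19 HS, at 788 CPM, and in the 9 of E19 HSTS, at 1001.

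**Figure D5:**
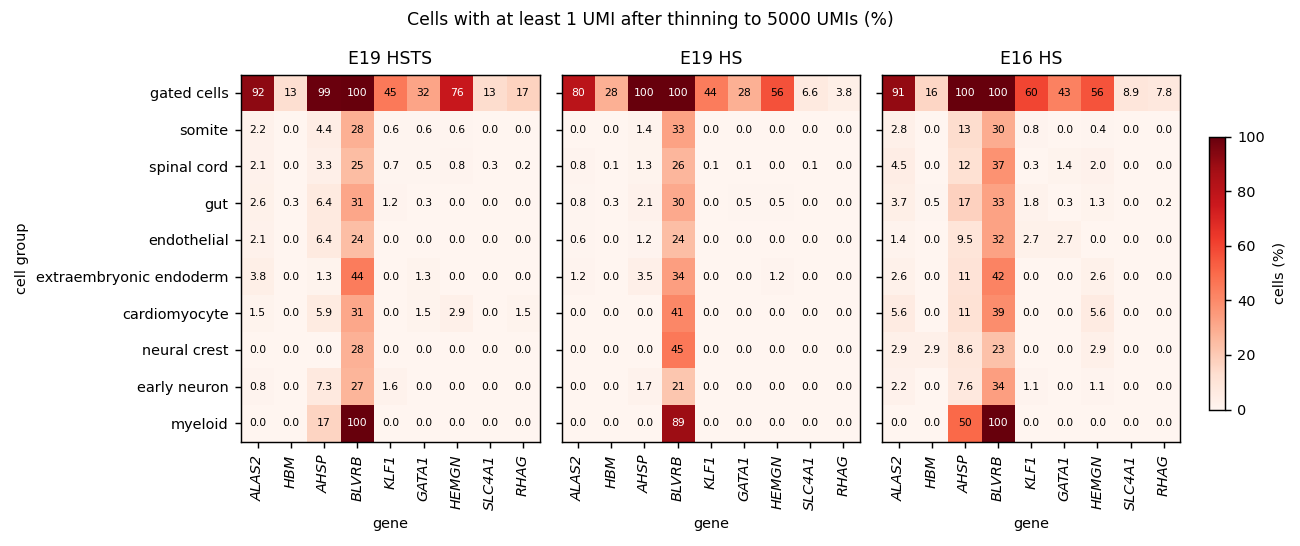
Share of cells (%) with at least 1 UMI of each gene after thinning to 5000 UMIs, for gated cells and for cells outside the gate with both markers of another type, in the 3 libraries; the colour runs from 0 to 100%. *RHAG* reached 17.1% of gated cells in E19 HSTS and at most 1.47% of any other group drawn, whereas *BLVRB* was found in all groups drawn; myeloid rows rest on 9, 26 and 2 cells before thinning.

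The members were found together in the same cells. Of the 7 members that did not set the gate, at least 3 were seen in 65.6% of gated E19 HSTS cells, 54.4% of E19 HS and 65.1% of E16 HS after thinning, against 1.39%, 0.846% and 0.842% of other cells. Over kept cells, which mix gated with other cells and so share that contrast, Pearson's correlation of log values between members had a median over the 3 libraries from 0.188 for *SLC4A1* with *HBM* to 0.911 for *ALAS2* with *AHSP*; *RHAG* correlated most with *ALAS2*, at 0.343. *RHAG*, *HBM* and *SLC4A1* had no UMI in 44.4% to 87.6% even of gated cells, so their correlations rest on few counts.

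Among 7607 genes with a symbol seen in at least 1% of kept cells of each library, the genes most like the members were few. *TSPO*, a mitochondrial membrane protein that binds porphyrins, came first for all but *SLC4A1*, with median correlations from 0.318 for *RHAG* to 0.794 for *AHSP*. *FTH1* and *ALAD* were also among the 3 most alike genes of several members. For *SLC4A1* these included *SLC39A8*, a zinc importer, at 0.374, and *TSPO* at 0.368.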

How the data were processed

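Whole embryos were dissociated and profiled with 10x 3′ v3.1 kits in 1 library per group. The authors aligned reads to Ovis_aries_genome_v1.0 with Cell Ranger 6.1.2 and deposited raw UMI counts per gene and cell; their Seurat 4.1.1 values were not used. Kept cells had 200 to 6000 genes, 1000 to 30000 UMIs and at most 10% of UMIs from 11 MT- genes; 88733467 to 113213654 UMIs remained per library. No doublets were removed. The 30000 UMI limit removed 135 gated cells in E19 HSTS, 97 in E19 HS and 56 at E16.

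UMIs were summed per library and cell group, divided by the summed total and given as CPM (UMIs per 1000000). A gene was tested with at least 50 UMIs in the higher library and called past 2-fold; a count of 0 was set to 3 for ratios. Intervals came from scipy 1.17.1, TMM factors from edgeR 4.0.16; the interval code was tested on simulated data. Each library was compared with E19 HS. Named were all members and, per list, the 3 genes with most UMIs in gated cells and up to 2 with the largest ratio per comparison and direction; *FECH*, *UROS*, *HBB* and markers at or near 0 were added after their values were seen. Members, lists and the attention to *RHAG* were chosen with earlier results of these data known. Gene order came from RefSeq's ARS-UI_Ramb_v3.0 table, another build, so no coordinates or sequences are given. E16 HSTS was not analysed here. Some genes that the naming rule selects are not reported here.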

Additional observations from a re-analysis of the deposited data

How the results depend on the processing

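No paired analysis was possible because each group is 1 library and the replicate numbers only name it; for the same reason no replicate could be left out. In gated cells the 9 members stayed on the same side of 1 between E19 HSTS and E19 HS under all 12 alternatives. For *KLF1* this is no clear direction, since its main ratio of 1.03 (0.983 to 1.08) covered 1 and the alternatives gave 1.006 to 1.12. The share ratio of gated cells was 2.63 with the stricter gate, 2.46 with a gate per 10000 UMIs and 2.56 on thinned cells for E19 HSTS to E19 HS, and 1.44, 1.60 and 1.94 for E16 HS to E19 HS. *RHAG* in the gate was 4.15 on thinned cells for the breeds, and between stages 1.23 with TMM scaling, 1.52 without the 20 largest genes and 1.16 relative to the median of all genes, the last chosen after seeing the data. At 1.5-fold, 5 members passed in the gate and 8 over all cells for the breeds, and 4 in the gate for the stages. No share of all genes past 1.5-fold stands beside these counts, so they show nothing particular to the members. Between stages the median ratio of all genes in the gate, 1.85, was itself past 1.5-fold. The 1 member past 2-fold in the gate between stages became 2 with all deposited cells, the looser gate or the gate on *AHSP* alone, since *HBM* at 0.5001 sits on the limit, and 0 with the stricter gate or thinned cells. With TMM scaling, the total without the 20 largest genes or the median scaling the count stayed 1 but the member changed, from *RHAG* higher to *HBM* lower, at 0.286, 0.354 and 0.270. Over all cells the 2 members became 1, *HBM*, with the stricter cell filter, all deposited cells, TMM scaling, the total without the 20 largest genes or the median scaling. The cause was not tested for these moves other than the scalings, which change the total by construction. For the members other than *RHAG*, 78 of 96 recomputed in-gate ratios of E19 HSTS to E19 HS lay within the counting interval of the main ratio. For the stages 59 of 96 did. Depth limits *RHAG* in E19 HS most, with 174 UMIs in gated cells.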

Other observations

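Cells outside the gate with a *RHAG* UMI numbered 59 in E19 HSTS, against 6 in E19 HS and 50 in E16 HS. In E19 HS all 6 also held 5 or more *AHSP* UMIs, in E19 HSTS 16 of 59 did and in E16 HS 25 of 50. Neither *AHSP* nor *ALAS2* was seen in 12 of these cells in E19 HSTS and in 3 in E16 HS. Outside the gate *ALAS2* stood at 15.3 CPM in E19 HSTS, against 2.89 in E19 HS and 7.84 in E16 HS, and *AHSP* at 27.3, 31.6 and 60.9. The gate itself shapes both levels, since a cell with 5 or more *AHSP* UMIs stayed outside only with under 2 of *ALAS2*. Such cells with 0 *ALAS2* UMIs numbered 11, 22 and 40, and those with 1 numbered 40, 74 and 96. The order of the libraries outside the gate is therefore no independent result for these 2 genes.

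Cells outside the gate with a *GATA1* UMI numbered 120 in E19 HSTS, 75 in E19 HS, and 233 at E16. Of them 2, 2 and 7 cells had a *KIT* UMI, or 1.67%, 2.67% and 3.00%, against 3.42%, 3.17% and 3.07% of the other cells outside the gate. These counts are too few to rank the shares. *KIT* marks early blood progenitors and also germ and pigment cells.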
